A study of Ovis aries with 16 samples.

Results

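A set of 100 gene IDs was nearly absent from the amnion of 1 animal of a fetal sheep study, the second animal of the infused group (IA 2), and present in all of the other 15 animals. The IDs were chosen by their measured levels, in CPM (the counts of a gene scaled to the total of its library). Each had 10 CPM or more in every one of the other 15 libraries, a mean under 1000 CPM in the controls, and a level in IA 2 of at most 1/20 of the lowest of the other 15. Of the 25197 gene IDs in the table, 6483 met the floor of 10 CPM in the 15 libraries, and 100 of these met all 3 conditions. A further 13 were as low in IA 2 but had a control mean of 1000 CPM or more and are left out. Because these values made the choice, the low level in IA 2 is described here and not tested.

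The amnion is the inner fetal membrane, a single layer of epithelial cells on a basement membrane and a thin, vessel-free connective tissue that holds scattered mesenchymal cells and macrophages. It lines the sac of amniotic fluid. Fluid and solutes pass across it into fetal vessels, a route known as intramembranous absorption, and vesicles that form at one face of the epithelium and fuse with the other are thought to carry part of this flow. A library made from whole amnion mixes the RNA of all its cells, so that fewer cells of a type and less RNA per cell cannot be told apart.

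The study asked how amnion transcripts respond when this absorption is altered. Pregnant ewes with 1 fetus each, at 121 ± 0.5 days of gestation (SE; term 145 to 150 days), carried catheters in maternal and fetal vessels, the amniotic fluid and the fetal bladder, controls included. Of 16 animals, 4 were controls (C), 4 had their fetal urine drained and not replaced (UD), 4 had it drained while lactated Ringer's solution was given in equal volume (UDR), and 4 had lactated Ringer's solution run into the amniotic fluid without pause, 2 liters each day (IA). Amnion was taken after 2 days, and 1 library was sequenced per animal. No source used here states breed or fetal sex.

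The libraries held 12245460 to 30767263 counts, and IA 2, with 16777223, lay within the range of the others. At its depth, 10 CPM stands for 168 counts. No symbol is attached to the IDs: the files hold IDs alone, and 0 of 25197 matched the reference table of 35057 genes. The tissue could therefore not be checked against marker genes of epithelium, mesenchyme, trophoblast, muscle or leukocytes, nor can the members be sorted by function. "Widely expressed" means here expressed in every amnion library other than IA 2, and says nothing of other tissues.

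In IA 2 the members together took 0.0130% of all counts (2175 counts; 95% exact interval 0.0124 to 0.0135%, counting error only). In the controls they took 2.40% ± 0.448 (SD, n = 4), and in the other 3 IA animals 2.54% ± 0.273 (SD, n = 3). The summed level in IA 2 was thus 185-fold below that of the controls and 196-fold below that of its own group. Single members held 0 to 145 counts in IA 2, with a median of 14. Of the 100, 57 lay under 1 CPM there and 2 above 5 CPM, the highest at 8.64 CPM. The level that was left in IA 2 had a median of 0.603% of the control mean, quartiles of 0.307% and 1.02%, and a highest value of 2.32%; the rule sets an upper limit to it.

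**Figure D1:**
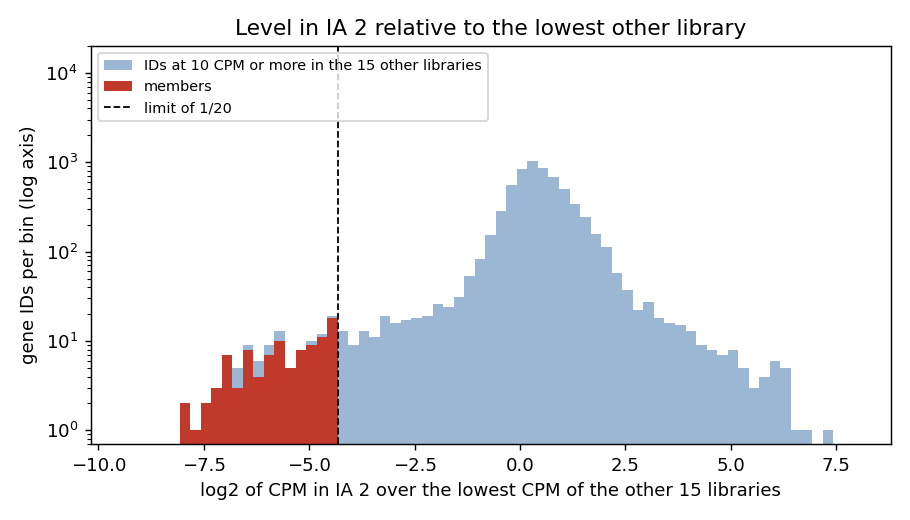
Histogram of the 6483 gene IDs at 10 CPM or more in the 15 libraries other than IA 2, by the log2 ratio of their CPM in IA 2 to the lowest CPM among those 15; the count axis is logarithmic, red bars are the members and the dashed line is the limit of 1/20. The 2 members with 0 counts in IA 2 are not drawn, and the blue IDs left of the line are those with a control mean of 1000 CPM or more.

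The members were the far end of a continuous tail. Of the 6483 IDs, 404 (6.23%) were at least 2-fold below the lowest other library in IA 2, 229 were at least 5-fold below, 159 at least 10-fold and 113 at least 20-fold. At least 40-fold was reached by 64 IDs, 54 of them members, and 100-fold by 21. The last members inside the limit lay 20.3, 20.2 and 20.1-fold below the lowest other library, and the first IDs outside it 19.6, 19.4 and 19.3-fold. No gap marks the limit. Members were more abundant than the other IDs above the floor: their median control level was 140 CPM, against 61.4 CPM in the 6383 non-members, and their control means ran from 25.7 to 988 CPM. The rule asks for no count in IA 2, and 98 of the 100 members had at least 1 count there.

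Both members without a count in IA 2 were among the less abundant ones, with control means under the members' lower quartile of 75.7 CPM. ENSOARG00000013124 was at 19.1, 53.6, 59.4 and 89.6 CPM in C 1 to C 4, at 18.8, 20.1, 30.9 and 32.6 CPM in UD 1 to UD 4, at 13.6, 20.2, 74.1 and 52.2 CPM in UDR 1 to UDR 4, and at 36.4, 20.2 and 53.4 CPM in IA 1, IA 3 and IA 4. Every library but IA 2 held it, and the groups overlapped throughout. Taking 3 counts (0.179 CPM) as the limit that a count of 0 allows, IA 2 was at least 76.0-fold lower than the lowest other library, UDR 1. ENSOARG00000011530 was at 20.8, 23.9, 42.3 and 26.9 CPM in the controls, at 10.1, 41.1, 35.1 and 15.8 CPM in UD, at 37.4, 35.1, 31.9 and 51.2 CPM in UDR, and at 33.6, 23.2 and 38.1 CPM in IA 1, IA 3 and IA 4. It was lowest in UD 1, and IA 2 was at least 56.7-fold lower than that.

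Of the 16 libraries, IA 2 was the one with a set of this size. With each other library in turn put in the place of IA 2 in the same rule, 0 IDs met it for 14 of the 15, and 2 met it for UDR 3. In this count and the next, IA 2 was then among the 15 others. IDs under 10 CPM in IA 2 failed the floor, which left 6125 to 6276 IDs. IDs low both in IA 2 and in the library tried were thus mostly missed. The contrast between IA 2 and the rest is therefore set in part by the counting itself. The number of IDs at least 2-fold below every other library was 404 in IA 2, 157 in UDR 3, 32 in UDR 2, 11 in UDR 1 and at most 6 in any other. By the same measure, no counterpart of equal size was seen at the upper end: 0 IDs at 10 CPM or more in IA 2 lay 20-fold above every other library, and 22 of the 6483 lay 2-fold above. These counts miss IDs that were also high in another library, and the second misses those under the floor. IDs higher in IA 2 than in the controls are described below with the correlations.

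The column names carry a sequencer lane. All C libraries, UD 1 and UD 2 were read in lane 1. UD 3, UD 4 and all UDR libraries were read in lane 2, and all IA libraries in lane 3. No library was read both in lane 1 and in another lane. Lane and treatment therefore cannot be told apart in UDR against C and in IA against C, and the UD group is split between lanes 1 and 2. IA 1, IA 3 and IA 4 were read in the same lane as IA 2 and had the members at control level. The libraries UDR 2 and UDR 3 were each read in lanes 2 and 3, and the ratio of a member's CPM in lane 3 to that in lane 2 had a median of 0.996 in UDR 2 (range 0.917 to 1.15) and 0.990 in UDR 3 (range 0.862 to 1.20).

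The other 3 infused animals kept the members close to the controls and close to each other. Relative to the mean log2 CPM of the controls, the median member lay at 0.21 in IA 1, 0.12 in IA 3 and 0.03 in IA 4, against -6.97 in IA 2. In 94 of the 100 members, IA 1, IA 3 and IA 4 were all within 2-fold of the control mean, much as in the non-members above the floor (95.4% of 6383). The median SD of a member's log2 CPM within a group was 0.24 in these 3 animals, 0.42 in C, 0.63 in UDR and 0.83 in UD. Non-members above the floor had the same order of groups, at 0.19, 0.30, 0.425 and 0.44.

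**Figure D2:**
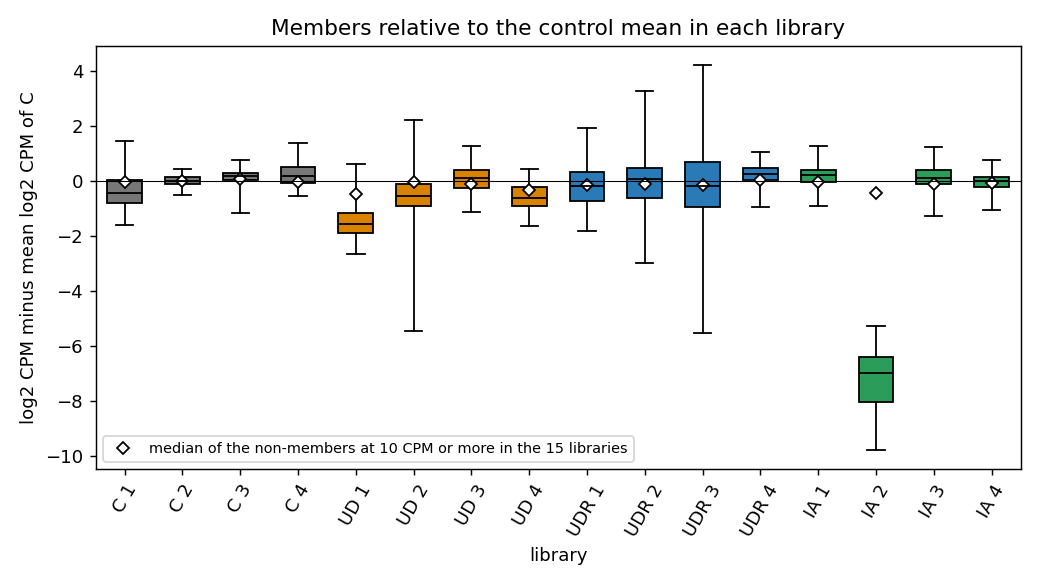
Members' log2 CPM minus the mean log2 CPM of the controls (vertical axis) in each of the 16 libraries (horizontal axis); boxes span the quartiles, lines in them mark the median, whiskers the full range of the 100 members, and white diamonds the median of the 6383 non-members above the same floor. IA 2 lies apart from all other libraries, with its median at -6.97, and UD 1 is the next lowest, at -1.57.

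Among the 15 libraries in which the members were present, UD 1 stood lowest. The UD animals had the largest median spread within a group, as they also had in the non-members. The median member was at -1.57 in UD 1, a level 0.338-fold that of the controls, at -0.60 in UD 4, -0.54 in UD 2 and 0.11 in UD 3. The members took 0.823% of counts in UD 1, 1.59% in UD 2, 1.63% in UD 4 and 2.66% in UD 3. The value of UD 3 was inside the control range of 1.77 to 2.78%, and those of the other 3 UD animals were below it. More than 2-fold below the control mean were 83 members in UD 1, 15 in UD 4, 20 in UD 2 and 2 in UD 3, where the shares among non-members were 18.5%, 4.97%, 4.67% and 3.42%. The control C 1 was near UD 2 and UD 4: its median member was at -0.43, and 18 members, against 2.79% of the non-members, were more than 2-fold below the control mean. UD 1 was the lowest of the 15 libraries for 67 members and for 34.7% of the non-members, and its value lay under all 4 controls in 87 members and in 58.3% of the non-members.

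Non-members above the floor were also mostly low in UD 1, where 77.0% of them lay below the control mean and 3.96% lay more than 2-fold above it. The median non-member stood at -0.48 in UD 1, at -0.32 in UD 4 and at -0.43 in IA 2. After TMM scaling, which sets libraries to a common level over most genes, the non-members were at -0.18 in UD 1 and the members at -1.27. The members of UD 4 were then at -0.40 and those of IA 2 at -6.73. UDR 1 moved from -0.17 to 0.07 and UDR 2 from 0.08 to 0.30, so the sign of UDR 1 depends on the scaling.

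The level of UD 1 followed the level of IA 2 in steps across genes. IDs at most 1/20 of the lowest other library in IA 2, the 13 abundant ones included, had a median of -1.58 in UD 1. IDs between 1/20 and 1/10 were at -1.47, those between 1/10 and 1/5 at -1.29, those between 1/5 and 1/2 at -1.06, those between 1/2 and 1 at -0.59, and the 4813 IDs above 1 at -0.38. UD 4 went from -0.60 to -0.29 and UD 2 from -0.55 to -0.01 between the first and the last of these classes. The control C 1 took a step of like size, from -0.43 to 0.03. UD 3 went from 0.12 to -0.12, IA 1 from 0.24 to -0.07, IA 3 from 0.14 to -0.11 and IA 4 from 0.03 to -0.09. The values of UD 1 also enter the classes, through the floor of 10 CPM and as the lowest library of many IDs, and what this adds was not tested. Since all libraries are set against the same 4 controls, these are values side by side and carry no test.

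**Figure D3:**
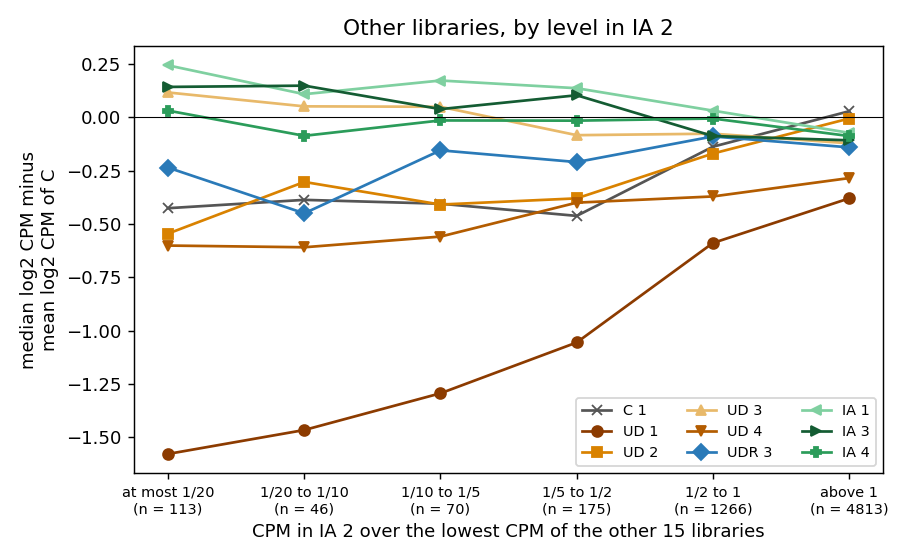
Median log2 CPM minus the mean log2 CPM of the controls (vertical axis) in 9 libraries, for the 6483 IDs grouped by the ratio of their CPM in IA 2 to the lowest CPM of the other 15 (horizontal axis, with the number of IDs in each class). UD 1 runs from -1.58 in the lowest class to -0.38 in the highest, C 1 from -0.43 to 0.03 and IA 1 from 0.24 to -0.07.

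The UDR animals differed in single members more than in the sum. Their summed share was even, at 2.62%, 2.56%, 2.66% and 2.75% of counts in UDR 1 to UDR 4. In UDR 3, 20 members were more than 2-fold below the control mean and 12 more than 2-fold above it, against 10.9% and 6.74% of the non-members. UDR 3 held the lowest of the 15 values for 17 members and the highest for 24, against 13.8% and 15.9% of the non-members. More than 2-fold above the control mean were 10 members in UDR 2 and 7 in UDR 1, against 2.33% and 0.768% of the non-members. UDR 4 had 0 members more than 2-fold below the control mean and 1 above.

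**Figure D4:**
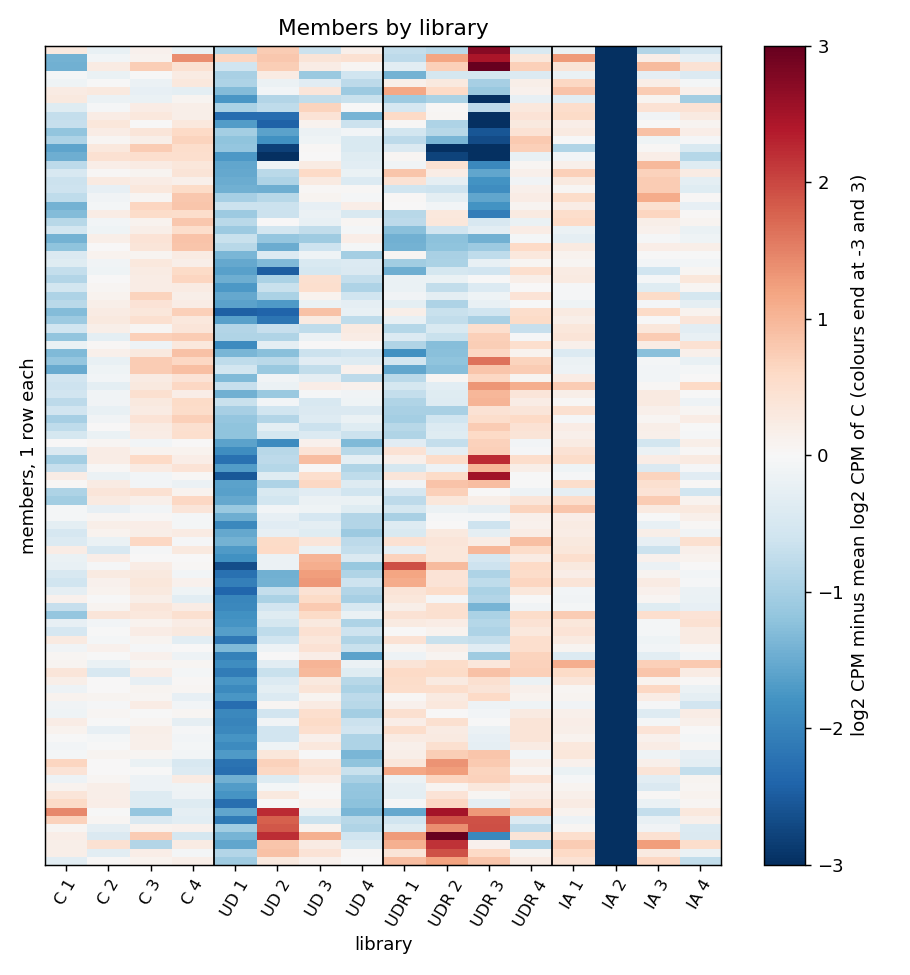
Log2 CPM minus the mean log2 CPM of the controls (colour, ending at -3 and 3) for the 100 members (rows, ordered by average linkage on correlation over the 15 libraries other than IA 2) in 16 libraries (columns, grouped as C, UD, UDR and IA). The column of IA 2 is at the end of the colour scale for all 100 members, UD 1 is blue for nearly all, and UDR 3 holds both blue and red rows.

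ENSOARG00000016979 had the highest level of any member in UDR 3 relative to the control mean. It was at 1646 CPM there, against 70.3, 145 and 145 CPM in UDR 1, UDR 2 and UDR 4 and 32.5, 104, 146 and 121 CPM in C 1 to C 4. The UD animals held 57.9 to 147 CPM and IA 1, IA 3 and IA 4 held 116 to 170 CPM. The UDR and control values overlapped apart from UDR 3. IA 2 held 10 counts, or 0.596 CPM. ENSOARG00000013143, an abundant member, was at 1711, 2099, 1608 and 1078 CPM in UDR 1 to UDR 4 and at 727, 924, 978 and 1027 CPM in C 1 to C 4, so every UDR animal lay above every control. It was at 436, 1108, 991 and 917 CPM in UD, at 1225, 1403 and 548 CPM in IA 1, IA 3 and IA 4, and at 7.57 CPM, from 127 counts, in IA 2.

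Members varied more among the 15 libraries than other IDs above the floor. The rule bears on these values too: the floor of 10 CPM limits how far a less abundant ID can fall, and non-members were less abundant. The SD of log2 CPM over the 15 had a median of 0.66 in members and 0.41 in non-members, and all 100 members lay above the non-member median. Without UD 1 and UD 4 the medians were 0.52 and 0.37. Only 4 members were within 2-fold of the control mean in all 15 libraries, against 52.4% of the non-members. With UD 1 left out, 35 members and 62.1% of non-members were.

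Most members were also correlated with the rest of the set over those 15 libraries. The correlation of a member with the mean of the other 99 had a median of 0.71 and quartiles of 0.52 and 0.80. It was above 0.7 for 52 members, under 0.3 for 8 and below 0 for 1. Among 12858 other IDs with a control mean of 1 CPM or more, the correlation with the members' mean had a median of 0.14, and 6.19% lay above 0.7. These correlations are over 15 libraries that share 1 scaling by library total, and they are given as a description. UD 1, where the median member stood at -1.57, enters all of them, and what it adds was not tested. The 2 sets are also unlike, since members had 10 CPM or more in each of the 15 libraries.

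The level in IA 2 can be set beside this correlation for IDs outside the set. The 4 controls enter both values, and IA 2 chose the members whose mean is used, so the values below are a description with no reference for no relation. The 18 non-members correlated above 0.9 had a median of -1.42 in IA 2 relative to the controls, and the 230 between 0.8 and 0.9 had a median of -1.41. In IA 2, 83.3% of the first and 63.0% of the second were more than 2-fold below the control mean. The median was -1.03 for correlations of 0.7 to 0.8, -0.79 for 0.5 to 0.7, -0.48 for 0 to 0.5 and 0.11 for -0.5 to 0. The 1159 IDs correlated below -0.5 had a median of 2.36 in IA 2, with quartiles of 1.29 and 3.33, and 0.259% of them were more than 2-fold lower. Of the non-members, 11.1% of the IDs above 0.9 and 10.4% of those from 0.8 to 0.9 fell to less than 1/20 of the control mean in IA 2.

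**Figure D5:**
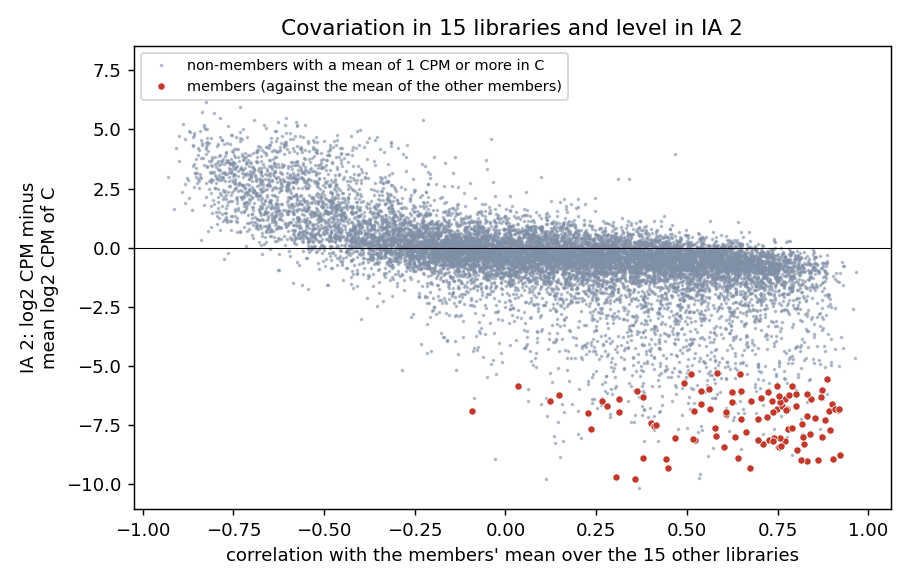
Log2 CPM in IA 2 minus the mean log2 CPM of the controls (vertical axis) against the correlation with the members' mean log2 CPM over the 15 other libraries (horizontal axis), for 12858 non-members (grey) and the 100 members (red, each against the mean of the other 99). IDs correlated below -0.5 lie mostly above 0 in IA 2, with a median of 2.36, and IDs above 0.8 lie mostly below 0.

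UD was set against C to see how the members stood when fetal urine was drained. The model was fitted on the counts of 14284 genes in the 15 libraries without IA 2, since IA 2 made the choice. The members leaned lower in UD: 83 of 100 had a negative log2 fold change, against 50.2% of all genes. Their median was -0.36, with quartiles of -0.54 and -0.13, and that of all genes was 0.00. By edgeR 0 members passed an adjusted p of 0.05, as did 0% of all genes, and the smallest adjusted p of a member was 0.549. At an unadjusted p under 0.05, 3 members were lower and 0 higher, where 1.23% of all genes were lower and 6.80% higher. DESeq2 also passed 0 members, and 1.82% of all genes. Every UD animal was below every control in 4 members, against 2.81% of all genes. ENSOARG00000013124 had a log2 fold change of -0.94 (SE 0.53, adjusted p = 0.748 by edgeR). The size of the lean depended on single animals: the median was -0.14 without UD 1 and -0.65 without UD 3. Without UD 1, 66 members had a negative log2 fold change, against 48.8% of all genes. Without UD 3, 31 members were lower at an unadjusted p under 0.05 by edgeR, where 4.60% of all genes were.

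UDR against C concerns drainage with the volume given back. The median log2 fold change of members was 0.16, and that of all genes 0.02. Of the members 67 were higher and 33 lower, where 48.0% of all genes were lower. By edgeR 0 members and 0% of all genes passed, and by DESeq2 0 members and 0.434% of all genes. At an unadjusted p under 0.05, 4 members were higher, where 5.46% of all genes were, and 2 lower, where 2.29% were. Every UDR animal was above every control in 4 members, against 0.889% of all genes. ENSOARG00000013143 was 1 of these, with a log2 fold change of 0.99 (SE 0.35, adjusted p = 0.573 by edgeR). ENSOARG00000016979 had a log2 fold change of 2.46 (SE 0.84, adjusted p = 0.567 by edgeR), which was 0.36 without UDR 3. DESeq2 returned no p for this ID in any of the comparisons reported here, so its counts of 0 members do not cover it.

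IA against C concerns fluid added to the sac, and without IA 2 it sets 3 infused animals against 4 controls. The members leaned slightly higher, with a median log2 fold change of 0.17, where all genes had a median of -0.02. Of the 100, 76 lay above 0 and 24 below it, where 52.4% of all genes lay below 0. By edgeR 0 members and 0% of all genes passed, with a smallest adjusted p of 0.9999. DESeq2 passed 0 members and 0.0140% of all genes. At an unadjusted p under 0.05, 1 member was higher, where 0.497% of all genes were, and 0 were lower, where 0.602% were. With IA 2 in the fit the median was -0.24, and the median SE of a member rose from 0.43 to 0.85, while that of all genes stayed at 0.42 and 0.41. That fit uses the values that chose the members, and nothing is read from it.

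UDR against UD concerns the replacement itself. It shares the UD and UDR animals with the comparisons above. The members leaned higher in UDR: 90 of 100 had a positive log2 fold change and 10 a negative one, where 47.1% of all genes had a negative one. Their median was 0.57, with quartiles of 0.32 and 0.78, and all genes had a median of 0.04. By edgeR 0 members and 0% of all genes passed, and the smallest adjusted p of a member was 0.240. DESeq2 passed 0 members and 2.98% of all genes. At an unadjusted p under 0.05, 14 members were higher, where 3.87% of all genes were, and 0 were lower, where 7.76% were. The median was 0.37 without UD 1, and without UD 3 it was 0.83, with 2 members and 0.650% of all genes passing edgeR's adjusted p.

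These comparisons had limited precision. The median SE of a member's log2 fold change was 0.40 for UD and UDR against C and 0.43 for IA against C, near the 0.39 and 0.42 of all genes. On simulated counts of UD against C over 14284 genes, edgeR recovered 6% of genes changed 2-fold and 62% of those changed 4-fold, so a change the size of the members' median was rarely detectable gene by gene.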

How the data were processed

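Amnion RNA of 16 animals was measured by poly(A)-selected RNA-seq, with libraries amplified by PCR, per the labels' protocols. The authors deposited whole-number counts of reads per Ensembl gene ID. FastQC 0.11.3, HTSeq 0.6.1 and DESeq2 are named in the submitters' processing notes. Aligner, build, annotation and strand option were not given in the sources used here. Reads of overlapping, antisense or near-identical genes may therefore be left uncounted or counted under another ID. Of the 18 columns, 0 were left unmatched to a sample. The 2 runs of UDR 2 and of UDR 3 differed by little more than counting noise and were summed. Their chi-square per degree of freedom was 1.03 and 1.06, against 44.9 or more between animals of a group.

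The members and lists were chosen with earlier results of these data known. CPM used library totals, and log2 CPM a pseudocount of 0.1. Tests used edgeR 4.0.16 (R 4.3.3): quasi-likelihood F tests, two-sided, TMM scaling, filterByExpr, group as the only term, 15 libraries without IA 2, and Benjamini-Hochberg adjustment over 14284 genes at 0.05. edgeR's fit was tested on simulated data. Alternatives were all 16 libraries, RLE scaling, no count filter, DESeq2 1.42.0, a replicate block and each library left out. With 0 IDs matched to symbols, the fixed marker lists could not be applied. By the rule for unnamed IDs, the 2 members lowest in IA 2 relative to the lowest other library and the 2 with the smallest p among those higher against C are named.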

Additional observations from a re-analysis of the deposited data

Results flagged for a closer look

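A library far from the rest of its group was looked for in 24 sets of 4 values and found in 2. The limit used marks about 1 in 20 sets by chance where values were not chosen beforehand. Both sets found rest on chosen values: the members by IA 2, and ENSOARG00000016979 by its p in UDR against C. The sets also share animals, so the rate of 1 in 20 is no reference for them. The median log2 CPM of the members relative to the controls was -6.97 in IA 2 and 0.03 to 0.21 in the rest of its group; the members were chosen by this library. ENSOARG00000016979 was at 1646 CPM in UDR 3 and at 70.3 to 145 CPM in the other UDR animals. What these values came from was not tested.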

How the results depend on the processing

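Of 183 recomputed values, 177 were marked as the same and 6 as moved. Counts of members passing were the same only if equal. Named genes were judged only by sign and by passing the adjusted p, and the other values by the spread or a 1.5-fold margin. The log2 fold change of ENSOARG00000016979 in UDR against C thus counts as the same, though it was 2.46 as reported and 0.364 without UDR 3. With all 16 libraries the members' median log2 fold change of IA against C changed sign, to -0.244; this fit includes IA 2, which chose the members. Without UD 3, edgeR passed 2 members and 0.650% of all genes for UDR against UD; with any other library left out it passed 0 in each comparison. A limit of 1/40 left 54 members; limits of 1/10 and other floors, scalings and runs gave 73 to 141, and leaving out 1 library 99 (without C 1) to 132 (without UD 1). With the 100 most abundant genes taken out, the members' share of counts was 2.93% in C, 3.02% in UDR and 3.24% in IA without IA 2. With 1 library left out the median for UD against C was -0.653 to -0.138, for UDR against C 0.101 to 0.276, for IA against C 0.075 to 0.26 and for UDR against UD 0.367 to 0.828.

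Same-numbered animals deviated from their group means with correlations of -0.439 to 0.639 over 21 pairs. No steady pairing by number was seen, and these values cannot show that the animals were unpaired. With the replicate number as a block, 0 members passed, and the medians were -0.426, 0.155, 0.188 and 0.6 for UD, UDR and IA against C and UDR against UD. IA 2 is 1 animal and 1 library, so what sets it apart among the animal, the sampled tissue and the library preparation cannot be told apart. With 4 animals a group, 2-fold changes of single genes were mostly not detectable.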
